A study of Mus musculus with 16 samples.

Results

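The clustered protocadherins are cell surface proteins of the cadherin family whose genes lie side by side in an alpha, a beta and a gamma cluster. The members were chosen by symbol alone, as every gene named Pcdha, Pcdhac, Pcdhb, Pcdhga, Pcdhgb or Pcdhgc with a number that was present in both blocks of the deposited expression table. The rule found 58 of 17986 genes, made up of 14 alpha, 22 beta and 22 gamma members. Bulk RNA had been sequenced from CA1, a field of the hippocampus, cut out by laser from 8 µm sections of frozen, unperfused brains of male C57Bl6 mice aged 3 to 6 months. The mice carried either the wild-type label or a label for loss of Neil3 (N3 -/-), the gene of a DNA glycosylase, and the labels name no promoter, Cre or other transgene. Home cage mice had no intervention, with 2 libraries per genotype label. Exploration mice spent 20 min per day for 1 week in an open field with walls of 50 cm, and died 20 min after the last session, with 3 libraries per genotype label. Of the 16 labelled samples these 10 were used, and 6 samples of the learning condition were not analysed here.

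As background, each alpha and gamma gene has its own promoter and first exon, and this variable exon is spliced to constant exons shared by the whole cluster, whereas a beta gene is a single exon with no constant part. Most promoters are chosen by chance in each neuron, with CTCF and cohesin looping a promoter to a distant enhancer, and the resulting set of proteins forms dimers that bind only cells carrying the same set. This recognition lets the branches of a neuron tell themselves from those of other neurons and supports self-avoidance, tiling and synapse formation. The C-type genes at the ends of the alpha and gamma clusters are expressed more widely and are not chosen by chance in the same way.

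Values are FPKM, fragments scaled to transcript length and to the mapped fragments of a library, so levels can be compared between genes per length. The files give no read totals, and the spacing of low values placed it at 18700000 to 19950000 fragments per library with 100 nt taken off each transcript length. Neil3 went against the labels. It stood at 12.864 ± 2.87 FPKM (SD, n = 5) in libraries labelled as knockout and at 0 to 0.05 FPKM in those labelled as wild type (difference 12.854 FPKM, exact two-sided permutation p = 0.00794). The groups are therefore called WT-labelled and KO-labelled, and no direction below is a statement about Neil3 loss. CA1 markers had summed levels of 952.7 to 1093.1 FPKM and dentate granule markers 1.4 to 1.9 FPKM. The 4 home cage and 6 exploration libraries stand in separate blocks of the table, so an exploration difference and a difference between blocks cannot be told apart. Choroid plexus markers reached 220.6 FPKM in WT-labelled home cage replicate 1 and 119.3 and 94.9 FPKM in WT-labelled exploration replicates 1 and 2, against 0.0 to 4.3 FPKM in the other libraries. In bulk RNA, fewer cells of a type and less RNA per cell cannot be told apart. The labels do not say whether each library came from its own animal, so the p-values measure the spread between these libraries, which may be technical.

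All 58 members lie on chromosome 18 (GRCm38, the build in the submitters' processing notes), on the plus strand. The alpha cluster runs from 36930285 to 37188897 (259 kb), the beta cluster from 37264998 to 37521419 (256 kb) and the gamma cluster from 37661775 to 37841873 (180 kb), by RefSeq coordinates. In GENCODE transcripts an alpha or gamma member has 4 exons and a beta member 1. The constant exons add 2860 nt to each alpha transcript and 2119 nt to a full gamma transcript. As a result 48.6% to 54.9% of an alpha transcript and a median of 44.8% of a gamma transcript is sequence that other members carry too. Reads from these exons name the cluster but not the member, and how they were divided is not given in the sources used here. A beta transcript shares 0.0% with other members, apart from Pcdhb21 at 9.7% and Pcdhb22 at 6.9%. Pcdhgb8 has a short annotated transcript of 2796 nt with 13.4% shared, so its FPKM is on another footing than that of its neighbours.

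Most members were detected, and a few gamma genes and Pcdhac2 carried much of the expression. The mean over the 10 libraries was at least 1 FPKM for 50 of the 58 members, at least 5 FPKM for 17 and at least 10 FPKM for 6. In a single library 45 to 53 members reached 1 FPKM, 39 did so in every library and 3 in none. Near the 1 FPKM line, Pcdhb16 had a mean of 1.041 FPKM and Pcdhb8 of 0.973 FPKM. The members never at 1 FPKM were Pcdha8, Pcdhb1 and Pcdhb21, with means of 0.244, 0.023 and 0.289 FPKM. The gamma cluster held 65.2% to 70.7% of the summed member FPKM of a library.

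**Figure D1:**
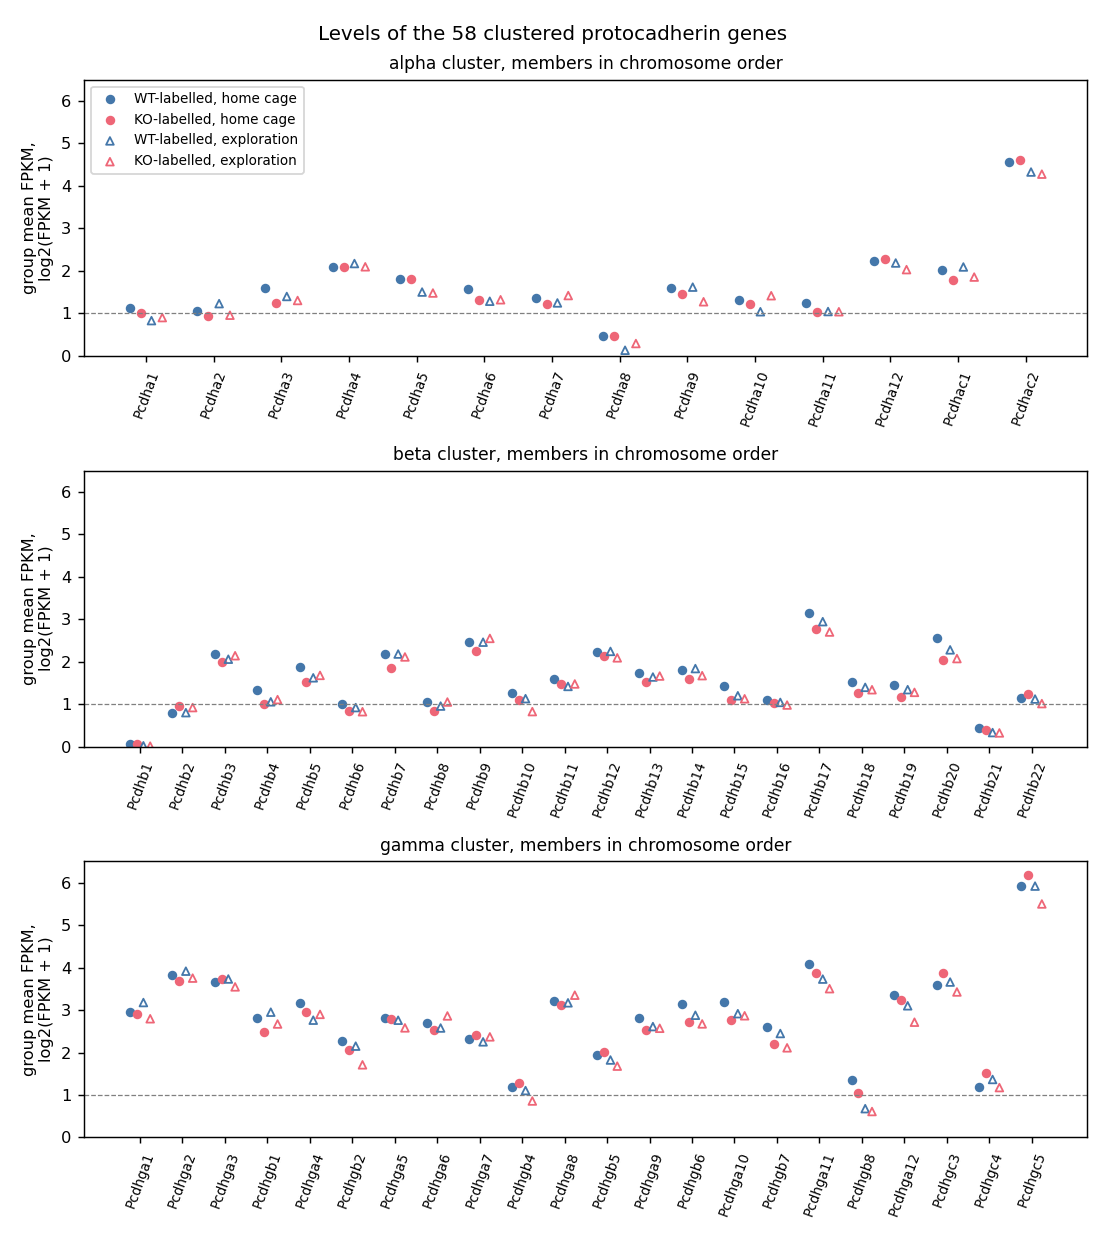
Mean level of each of the 58 members per group as log2(FPKM + 1), with members in chromosome order in the alpha, beta and gamma panels and a dashed line at 1 FPKM. Filled circles are home cage and open triangles exploration groups, blue WT-labelled and red KO-labelled. Pcdhac2 and Pcdhgc5, at the ends of the alpha and gamma clusters, stand highest in their panels.

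The C-type members ran from 57.285 FPKM, the highest mean of the family, down to 1.484 FPKM. Pcdhgc5, which is known to bind GABA-A receptors and to be a protein of the mature brain, ranked first of the 58 members in all 10 libraries, with a mean of 57.285 ± 11.1 FPKM (SD, n = 10) and 30.4% of the summed gamma level. Pcdhac2, needed for the even spreading of serotonergic axons, ranked 2 in all 10 libraries with 20.42 ± 2.38 FPKM and held 47.0% of the summed alpha level. Pcdhgc3, which promotes dendrite growth in cortical neurons and can inhibit Wnt signalling through Axin1, had 11.4 ± 1.63 FPKM. Pcdhac1 had 2.858 ± 0.508 FPKM. Pcdhgc4, required for the survival of many neurons in development, was the lowest of the 5 at 1.484 ± 0.293 FPKM.

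Among the other types, the gamma A members were the highest. Their 12 means ran from 4.036 FPKM (Pcdhga7) to 12.993 FPKM (Pcdhga2), with a median of 6.742 FPKM. Pcdhga2 (12.993 ± 1.72 FPKM, SD, n = 10), Pcdhga11 (12.673 ± 2.4 FPKM) and Pcdhga3 (11.646 ± 1.58 FPKM) led the type. These 3 and Pcdhgc3 exchanged places between libraries within ranks 3 to 7 of the 58, so their order was not beyond their spread. Pcdhga12, singled out after its values were seen, was at 2.97 FPKM in KO-labelled exploration replicate 1 and at 6.2 to 10.31 FPKM in the other 9 libraries. The 7 gamma B members had a median of 3.104 FPKM, from Pcdhgb8 at 0.866 FPKM to Pcdhgb6 at 6.203 FPKM.

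Beta and alpha members lay lower and close to each other in level. The 22 beta members had a median of 1.549 FPKM. Pcdhb17 led them with 6.394 ± 1.0 FPKM (14.2% of the beta sum), followed by Pcdhb9 with 4.453 ± 0.515 FPKM and Pcdhb20 with 3.72 ± 0.759 FPKM. The 12 alpha members that are not C-type had a median of 1.528 FPKM. Pcdha12 (3.496 ± 0.513 FPKM), Pcdha4 (3.334 ± 0.334 FPKM) and Pcdha5 (2.081 ± 0.571 FPKM) were the highest of them, each well under Pcdhac2. Level was only weakly related to place in the cluster, as a description across members that share a cluster. Spearman's rho between mean level and chromosome order was 0.21 over the 12 alpha members, 0.17 over the 22 beta members and -0.22 over the 19 gamma members that are not C-type.

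The order of the members was much the same from library to library. Spearman's rho across the 58 members was 0.944 to 0.969 for the 8 pairs of libraries within a group and 0.925 to 0.974 for the 37 pairs between groups. The ranges overlap, so the rank profile did not set the groups apart. Within the alpha cluster alone, whose members lie close together, the pairs between groups ran from 0.56 to 0.977 over 14 members.

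Summed over members, the clusters differed in how the groups lay. The alpha sum was 48.36 and 47.96 FPKM in the 2 WT-labelled and 43.63 and 48.29 FPKM in the 2 KO-labelled home cage libraries, 43.75, 41.02 and 41.21 FPKM in the 3 WT-labelled and 39.54, 40.96 and 39.17 FPKM in the 3 KO-labelled exploration libraries. All of the WT-labelled exploration libraries lay under both WT-labelled home cage libraries, and likewise for the KO-labelled groups. The beta sum was 54.83 and 47.74 against 39.13 and 41.78 FPKM in the home cage (WT-labelled first), without overlap, and 47.54, 44.45 and 45.03 against 37.08, 46.4 and 45.16 FPKM in exploration, with overlap. The 19 gamma A and B members summed to 130.8 ± 10.9 and 115.1 ± 8.1 FPKM in the WT-labelled and KO-labelled home cage groups (SD, n = 2) and to 119.5 ± 0.853 and 107.2 ± 12.9 FPKM in the exploration groups (SD, n = 3).

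The 3 gamma C-type members did otherwise. Their sum was 72.1 ± 2.45 and 86.8 ± 13.7 FPKM in the WT-labelled and KO-labelled home cage groups, and 72.8 ± 1.65 and 55.2 ± 3.5 FPKM in the WT-labelled and KO-labelled exploration groups. They made up 35.6%, 42.9%, 37.8% and 34.1% of the summed gamma level in these groups, in that order. The KO-labelled libraries were thus the highest of the home cage and the lowest of the exploration libraries for this sum, and the WT-labelled ones were near each other in both. Sums over members were not tested.

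**Figure D2:**
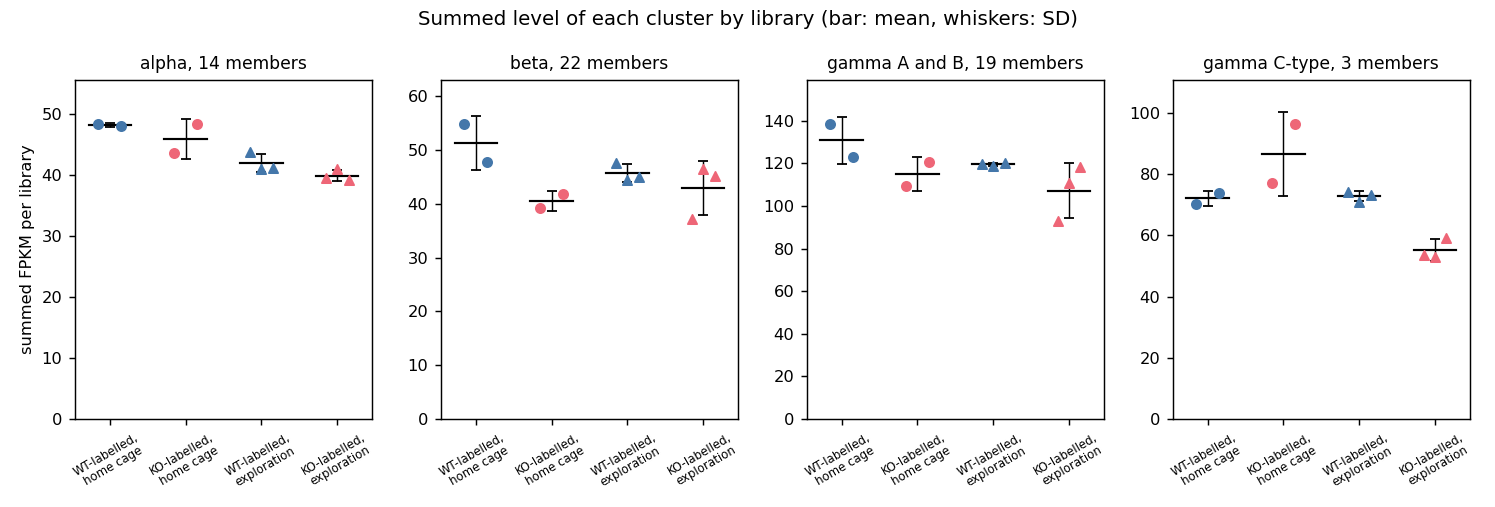
Summed FPKM per library of the alpha cluster, the beta cluster, the gamma A and B members and the gamma C-type members, by group of genotype label and environment; points are libraries, bars means and whiskers SD. For the gamma C-type members the KO-labelled home cage libraries are at 77.05 and 96.46 FPKM and the KO-labelled exploration libraries at 52.98 to 59.27 FPKM.

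Each gene at 1 FPKM or more in at least 2 libraries was tested with limma on log2(FPKM + 1), and called at a Benjamini-Hochberg adjusted p under 0.05 over the 11892 genes tested. Of the 58 members 54 were tested, and Pcdha8, Pcdhb1, Pcdhb6 and Pcdhb21 were not. Because 1 FPKM is added before the log2, the differences understate the change of low genes. The comparisons share libraries with each other, so their values stand side by side and are not independent of one another.

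In the home cage, the KO-labelled libraries had lower values of most beta members, and Pcdhb20 fell. Pcdhb20 was at 5.3 and 4.53 FPKM in the WT-labelled libraries, against 2.88 and 3.32 FPKM in the KO-labelled ones. Both KO-labelled values lay under both WT-labelled ones (log2 difference -0.53, SE 0.124, limma adjusted p = 0.0407). It was the 1 member called of 54, or 1.85%, beside 3.57% of all genes tested. The call was lost in 8 of 10 fits that left out 1 library, all but those without KO-labelled exploration replicate 1 or 3, with differences from -0.62 to -0.43. The beta lead gene Pcdhb17 was at 7.97 and 7.74 against 5.97 and 5.73 FPKM, also without overlap, and was not called (-0.37, SE 0.116, adjusted p = 0.111).

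Of the 54 members 22 were lower in both KO-labelled than in both WT-labelled home cage libraries, or 40.7%, beside 25.9% of all genes, and 5 were higher in both, or 9.26%, beside 21.0% of all genes. The median difference was -0.16 over the members and -0.02 over all genes, and 42 of 54 members were negative (77.8% against 54.1% of all genes). The beta cluster held much of this, with 17 of 19 tested members negative, a median of -0.21 and 13 lower without overlap. Of the 13 alpha members 10 were negative (median -0.12), of the 12 gamma A members 10 (median -0.12) and of the 7 gamma B members 5 (median -0.27). Leaving out 1 library at a time kept the members' median negative, from -0.23 without WT-labelled replicate 2 to -0.08 without KO-labelled replicate 1. The count of 54 covers members that passed the filter on low values. Members of a cluster share enhancers, and alpha and gamma members also share reads of the constant exons. The members are therefore not separate measurements of the genotype label.

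The C-type members of the gamma cluster went the other way in the home cage. Pcdhgc5 was at 58.46 and 60.87 FPKM in the WT-labelled and 62.58 and 79.64 FPKM in the KO-labelled libraries (difference 0.24, SE 0.110, adjusted p = 0.273). Pcdhgc3 was at 10.74 and 11.55 against 12.59 and 14.94 FPKM (0.28, SE 0.104, adjusted p = 0.178), and Pcdhgc4 at 1.17 and 1.41 against 1.88 and 1.88 FPKM (0.33, SE 0.140, adjusted p = 0.231). All 3 were higher in both KO-labelled libraries and none passed the test. Pcdhac2 was at 22.18 and 23.16 against 22.28 and 24.28 FPKM (0.04, SE 0.089) and overlapped, as did Pcdhac1 with 3.29 and 2.84 against 2.97 and 1.88 FPKM (-0.26, SE 0.162). KO-labelled replicate 2 held the highest Pcdhgc5, Pcdhgc3 and Pcdhac2 value of the 10 libraries.

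Markers of other cells moved with the genotype label in the home cage. Astrocyte markers summed to 105.2 to 115.1 FPKM in the WT-labelled and 151.0 to 188.8 FPKM in the KO-labelled libraries (2 of 7 called higher, 0 lower), and oligodendrocyte markers to 143.3 to 171.1 and 195.1 to 233.8 FPKM (0 of 7 called). Microglia markers summed to 42.5 to 46.7 and 53.2 to 56.9 FPKM (1 of 7 called higher). Oligodendrocyte precursor markers summed to 11.3 to 12.9 and 18.6 to 23.1 FPKM (1 of 2 tested called higher) and endothelium markers to 20.6 to 21.2 and 26.5 to 31.8 FPKM (1 of 5 called higher). CA1 markers summed to 1066.8 to 1074.3 and 986.4 to 1029.8 FPKM, with 1 of 7 called higher and 1 lower. CA3 markers summed to 116.0 to 139.9 and 141.3 to 148.8 FPKM, without overlap (0 of 4 tested called). Beside these marker calls, 3.57% of all genes were called. WT-labelled replicate 1 had the highest choroid plexus and, at 253.8 FPKM, a higher CA2 marker sum than the 125.2 to 131.9 FPKM of the other home cage libraries. No marker list had a gene at 0 in every library. The part of these in the protocadherin values was not tested.

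In exploration, no member was called between the genotype labels, and the values of Pcdhgc5 came nearest. It was at 60.33, 57.56 and 60.71 FPKM in the WT-labelled and 42.64, 41.71 and 48.35 FPKM in the KO-labelled libraries. All 3 KO-labelled values lay under all 3 WT-labelled ones (log2 difference -0.42, SE 0.090, limma adjusted p = 0.0619, a ratio of 0.743 in FPKM). It passed the threshold only in the fits without KO-labelled home cage replicate 1 or replicate 2, which enter through the shared spread. The count was 0 of 54 beside 0.597% of all genes, and 10 members had an unadjusted p under 0.05, as did 17.2% of all genes. Pcdhgc3 was at 12.18, 11.84 and 10.9 against 9.56, 10.3 and 9.4 FPKM, also without overlap (-0.23, SE 0.085, adjusted p = 0.2). Pcdhgc4 at 1.69, 1.56 and 1.48 against 1.28, 0.97 and 1.52 FPKM overlapped, and so did Pcdhac2 at 19.89, 17.74 and 19.54 against 17.68, 19.33 and 18.12 FPKM.

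The beta genes Pcdhb20 and Pcdhb17 had the same sign here as in the home cage. Pcdhb20 was at 3.73, 3.9 and 3.92 FPKM in the WT-labelled and 2.81, 3.59 and 3.22 FPKM in the KO-labelled libraries (-0.21, SE 0.102, adjusted p = 0.314). Pcdhb17 was at 7.24, 6.2 and 6.62 against 4.75, 5.76 and 5.96 FPKM (-0.25, SE 0.095, adjusted p = 0.223). Neither overlapped and neither was called. Of the 54 members 9 were lower without overlap, or 16.7%, beside 13.5% of all genes, and 3 were higher, or 5.56%, beside 11.4%. The median was -0.07 over the members and -0.01 over all genes, and 38 of 54 were negative. By cluster, with C-type members included, it was -0.05 for alpha, -0.06 for beta and -0.20 for gamma members. By type it was -0.23 for C-type, -0.11 for gamma A and -0.24 for gamma B members. With quantile normalization the members' median was -0.02. Astrocyte markers summed to 122.8 to 161.2 FPKM in the WT-labelled and 155.8 to 179.0 FPKM in the KO-labelled exploration libraries (0 of 7 called). CA3 markers summed to 119.2 to 138.8 and 142.2 to 146.9 FPKM, without overlap (0 of 4 tested called). Of the CA1 markers 1 of 7 was called lower, beside 0.597% of all genes called. The part of these markers in the protocadherin values was not tested.

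Averaged over both environments, Pcdhb20 was again the 1 member called (-0.37, SE 0.080, limma adjusted p = 0.0422), or 1.85% of 54, beside 2.13% of all genes. Its KO-labelled values were the lowest within each environment in 5 of 5 libraries. Pcdhb17 was next (-0.31, SE 0.075, adjusted p = 0.0547). The median over members was -0.12, and 46 of 54 were negative (85.2% against 53.3% of all genes), among them 18 of 19 beta and 7 of 7 gamma B members. The Pcdhb20 call was lost in 9 of the 10 fits that left out a library and remained in the fit without KO-labelled exploration replicate 3. That fit called 3 members, adding Pcdhb17 and Pcdhga11.

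**Figure D3:**
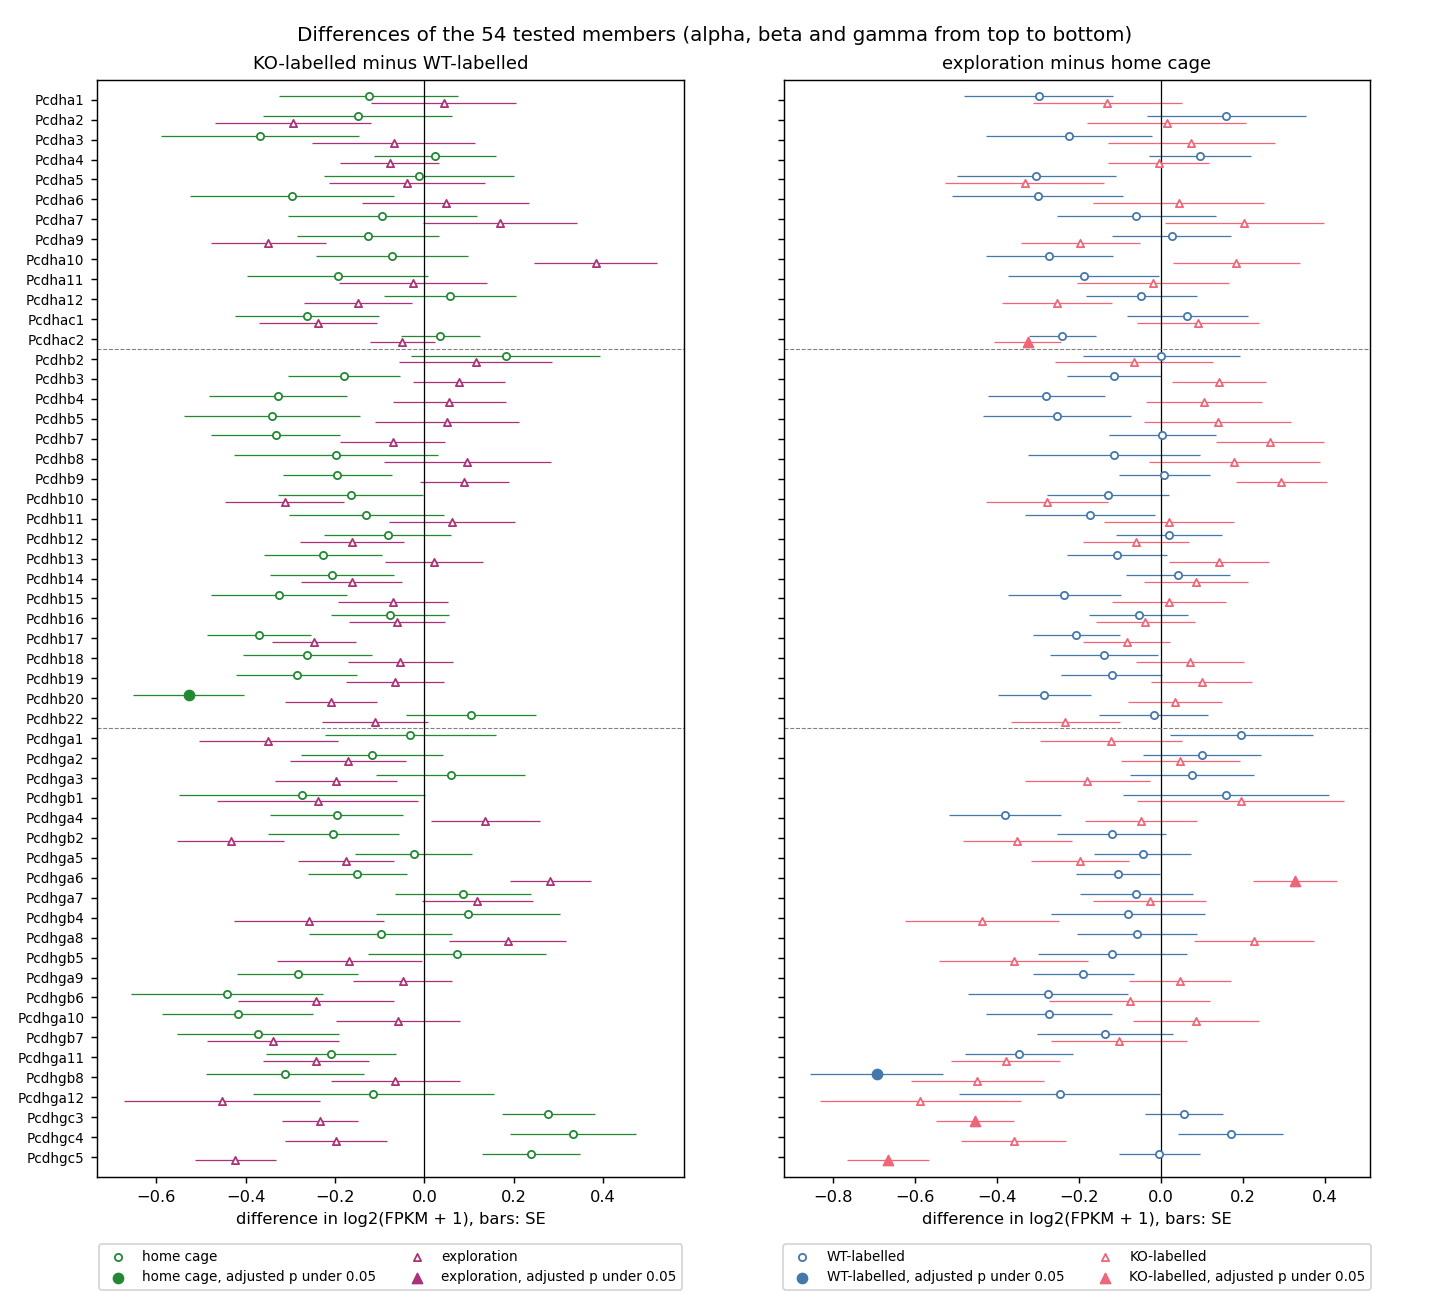
Difference in log2(FPKM + 1) of each tested member with its SE, KO-labelled minus WT-labelled on the left (home cage circles, exploration triangles) and exploration minus home cage on the right (WT-labelled circles, KO-labelled triangles); filled symbols have an adjusted p under 0.05. In the beta rows of the left panel 17 of 19 home cage values lie under 0, and in the right panel Pcdhgc5 of the KO-labelled mice is called at -0.67 while that of the WT-labelled mice is at 0.00.

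In WT-labelled mice, exploration and home cage libraries differed in 1 member by the test, Pcdhgb8, a gamma B gene. It was at 1.43 and 1.71 FPKM in the home cage and at 0.89, 0.39 and 0.52 FPKM in exploration, without overlap (log2 difference -0.69, SE 0.162, limma adjusted p = 0.0288). At the estimated depth 1 FPKM of Pcdhgb8 is about 54 fragments. This was 1.85% of 54 members beside 6.31% of all genes. The call was lost without WT-labelled home cage replicate 1 or 2 or without WT-labelled exploration replicate 2 or 3 (-0.77 to -0.60). It was also lost with a pseudocount of 0.1 FPKM, at a larger difference of -1.31. Pcdhga11 was at 16.67 and 15.06 against 12.1, 12.96 and 11.73 FPKM without overlap and was not called (-0.35, SE 0.133, adjusted p = 0.144).

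The highest members, Pcdhac2 and Pcdhgc5, were not called in WT-labelled mice, and the difference between them was not tested. Pcdhac2 was lower in all 3 exploration libraries than in both home cage ones (-0.24, SE 0.081, adjusted p = 0.102), and Pcdhgc5 overlapped between them (0.00, SE 0.1). Of the 54 members 13 were lower without overlap, or 24.1%, beside 28.1% of all genes, and 1 was higher, or 1.85%, beside 19.7%; that 1 was Pcdhgc4 (0.17, SE 0.128). The median was -0.11 over the members and -0.02 over all genes, and -0.01 over the members with quantile normalization. Oligodendrocyte markers (4 of 7 called higher, 203.9 to 376.2 FPKM in exploration against 143.3 to 171.1 FPKM), astrocyte markers (3 of 7, 122.8 to 161.2 against 105.2 to 115.1 FPKM), microglia markers (3 of 7, 53.6 to 62.3 against 42.5 to 46.7 FPKM) and blood markers (3 of 4 tested, 227.6 to 308.1 against 94.9 to 154.1 FPKM) moved with this comparison. Interneuron markers (1 of 8 called higher, 341.3 to 384.1 against 239.8 to 278.1 FPKM) did so too. All these marker calls stand beside 6.31% of all genes called in this comparison. The part of all these markers in it was not tested.

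In KO-labelled mice, 3 of the 5 C-type members fell with exploration and 1 gamma A member rose. Pcdhgc5 went from 62.58 and 79.64 FPKM in the home cage to 42.64, 41.71 and 48.35 FPKM (log2 difference -0.67, SE 0.1, limma adjusted p = 0.00193), a ratio of 0.622 in FPKM. Pcdhgc3 went from 12.59 and 14.94 to 9.56, 10.3 and 9.4 FPKM (-0.45, SE 0.095, adjusted p = 0.00621), and Pcdhac2 from 22.28 and 24.28 to 17.68, 19.33 and 18.12 FPKM (-0.33, SE 0.081, adjusted p = 0.014). None of these 3 overlapped between the environments. Pcdhga6 was at 5.09 and 4.49 FPKM in the home cage and rose to 6.08, 5.91 and 6.82 FPKM (0.33, SE 0.102, adjusted p = 0.0329). Pcdhgc4 missed the threshold (1.88 and 1.88 against 1.28, 0.97 and 1.52 FPKM, -0.36, SE 0.128, adjusted p = 0.0542), and Pcdhac1 overlapped (0.09, SE 0.148).

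The 4 called members were 7.41% of 54, beside 28.6% of all genes, so the share of members called was under that of the background. The background moved with 1 library, as all genes called numbered 3400 as fitted and 505 without KO-labelled home cage replicate 2. Of the members 11 were lower without overlap (20.4%, beside 29.9% of all genes) and 6 higher (11.1%, beside 22.2%). The median was -0.02 over the members and -0.04 over all genes, and turned to 0.01 with size factors and 0.12 with quantile normalization, so no direction of the family is given here. By type it was -0.36 for the 5 C-type, -0.35 for the 7 gamma B, -0.04 for the 12 gamma A and 0.07 for the 19 beta members. The split of calls also moved with the scaling. It was 1 higher of 4 as fitted, 2 higher of 5 with size factors (adding Pcdhb9) and 3 higher of 6 with quantile normalization (adding Pcdhb9 and Pcdhb7).

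The Pcdhgc5 call was kept in all 10 fits that left out a library, with differences from -0.84 to -0.49. Without KO-labelled home cage replicate 2 it was the single call left of the 54 members, since Pcdhgc3 (adjusted p = 0.1), Pcdhac2 (adjusted p = 0.149) and Pcdhga6 (adjusted p = 0.25) were then lost. Without KO-labelled exploration replicate 3 there were 7 calls, with Pcdhga6 lost and Pcdhga11, Pcdhgb5, Pcdhgb8 and Pcdhgc4 added. Pcdhga6 was also lost without WT-labelled exploration replicate 1. With only the KO-labelled groups in the fit, Pcdhac2 (adjusted p = 0.058) and Pcdhga6 (adjusted p = 0.102) were lost. Interneuron markers (3 of 8 called higher, 322.4 to 390.0 FPKM in exploration against 249.4 to 260.3 FPKM), CA2 markers (2 of 4 tested called higher, 164.8 to 280.0 against 125.2 to 131.9 FPKM) and CA1 markers (1 of 7 called higher and 4 lower, summing to 952.7 to 1085.3 against 986.4 to 1029.8 FPKM) moved with this comparison. Blood markers (1 of 4 tested called higher, 159.9 to 291.2 against 124.6 to 149.2 FPKM) did so too. Oligodendrocyte (238.6 to 274.9 against 195.1 to 233.8 FPKM) and microglia sums (58.7 to 64.6 against 53.2 to 56.9 FPKM) were higher without overlap, with 0 of 7 called each. Of the astrocyte markers 1 of 7 was called higher, and of the CA3 markers 1 of 4 tested higher and 1 lower. All these marker calls stand beside 28.6% of all genes called in this comparison. The part of all these markers in it was not tested.

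**Figure D4:**
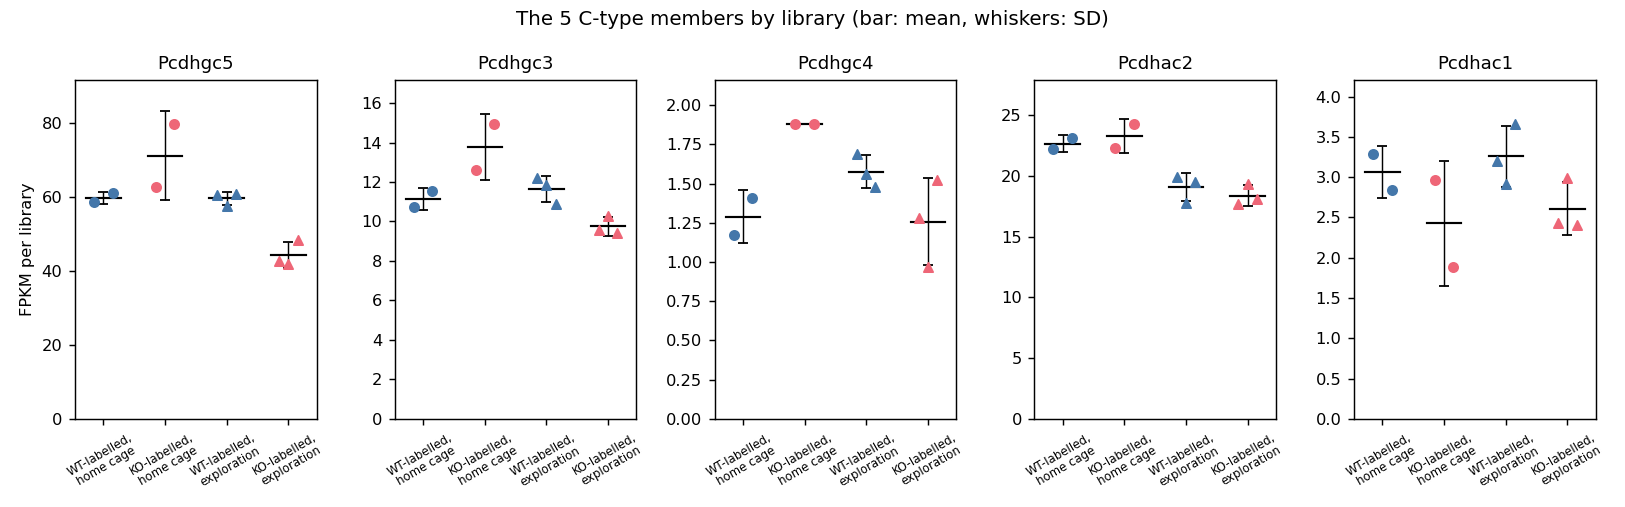
FPKM of the 5 C-type members in each library by group; points are libraries, bars means and whiskers SD. For Pcdhgc5 and Pcdhgc3 the KO-labelled home cage libraries lie above both WT-labelled ones and the KO-labelled exploration libraries below all WT-labelled ones.

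Averaged over both genotype labels, 5 members fell with exploration and 0 rose. They were Pcdhgb8 (log2 difference -0.57, SE 0.114, limma adjusted p = 0.00428), Pcdhac2 (-0.28, SE 0.058, adjusted p = 0.00459), Pcdhgc5 (-0.33, SE 0.071, adjusted p = 0.0055), Pcdhga11 (-0.36, SE 0.094, adjusted p = 0.014) and Pcdhgc3 (-0.20, SE 0.067, adjusted p = 0.0415). They made up 9.26% of 54, beside 31.9% of all genes. For Pcdhac2 the difference was -0.24 under the WT label and -0.33 under the KO label, and all 6 exploration libraries (17.68 to 19.89 FPKM) lay under all 4 home cage libraries (22.18 to 24.28 FPKM). The same held for Pcdhgb8, at 0.32 to 0.89 against 1.01 to 1.71 FPKM. Pcdhgc5 and Pcdhgc3 overlapped, with WT-label differences of 0.00 and 0.06 beside KO-label differences of -0.67 and -0.45.

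Leaving out a library kept the calls of Pcdhgb8, Pcdhac2 and Pcdhgc5 in 10 of 10 fits, of Pcdhga11 in all but those without WT-labelled home cage replicate 1 or KO-labelled home cage replicate 2, and of Pcdhgc3 in the 2 without KO-labelled home cage replicate 1 or KO-labelled exploration replicate 2. The Pcdhgc3 call was also lost with no filter (adjusted p = 0.0542), with size factors (adjusted p = 0.068) and with quantile normalization (adjusted p = 0.084). With quantile normalization 7 members were called, 3 of them higher (Pcdhb7, Pcdhb9 and Pcdhga6), against 0 higher of 5 as fitted. The members' median was -0.08 as fitted and 0.04 with quantile normalization. Of the interneuron markers 4 of 8 were called higher, with 239.8 to 278.1 FPKM in the home cage and 322.4 to 390.0 FPKM in exploration. Blood markers were called higher in 4 of 4 tested (94.9 to 154.1 against 159.9 to 308.1 FPKM), oligodendrocyte and microglia markers in 4 of 7 each, and astrocyte markers in 3 of 7. Of the CA1 markers 1 of 7 was called higher and 4 lower, and of the CA2 and CA3 markers 1 of 4 tested each was higher. Beside these marker calls, 31.9% of all genes were called. The part of these markers in the protocadherin values was not tested.

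Whether exploration acted differently under the genotype labels was tested directly as the difference between the responses. No member was called (0 of 54, beside 0.875% of all genes). At a limma unadjusted p under 0.05 there were 4 of 54, a smaller share than the 16.1% of all genes. Pcdhgc5 was the nearest at -0.66 (SE 0.142, limma unadjusted p = 0.000578, adjusted p = 0.0536), followed by Pcdhgc3 at -0.51 (SE 0.134, adjusted p = 0.0826), Pcdhga6 at 0.43 (SE 0.144, adjusted p = 0.157) and Pcdhgc4 at -0.53 (SE 0.181, adjusted p = 0.166). Of these 4, 3 were the C-type members of the gamma cluster, in a count under the background share. Pcdhgc5 was called in the fit without KO-labelled exploration replicate 1, and no member in the other fits without an exploration library. Pcdhgc5 and Pcdhgc3 were also called without KO-labelled home cage replicate 1. That fit left replicate 2 alone in its group, with the highest value of both genes over the 10 libraries. Neither was called when replicate 2 was left out instead. For Pcdhac2 the value was -0.08 (SE 0.115, 95% interval -0.34 to 0.17). The median was 0.04 over the members, 0.22 over the 19 beta and -0.51 over the 5 C-type members, and 0.00 over all genes.

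Regulators of promoter choice in the clusters were next compared, from a list of 25 genes of which 22 were tested. They include CTCF, the cohesin subunits and loaders, and enzymes of DNA and histone methylation. None was called between the genotype labels in either environment (0 of 22 in each, beside 3.57% of all genes in the home cage and 0.597% in exploration). At an unadjusted p under 0.05 there were 0 in the home cage and 6 in exploration, beside 18.3% and 17.2% of all genes. Ctcf, which binds the promoters and the enhancers, ran from 24.52 to 27.47 FPKM in home cage and from 21.98 to 24.76 FPKM in exploration libraries and was not called (averaged -0.14, SE 0.052, limma adjusted p = 0.0534). Rad21, a cohesin subunit, ranged from 25.81 to 32.72 FPKM and overlapped (-0.09, SE 0.066).

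With exploration 2 regulators fell in the WT-labelled libraries (median -0.13 over 22) and 10 in the KO-labelled ones (median -0.26), with 0 higher in each. Beside this, 6.31% and 28.6% of all genes were called, with medians of -0.02 and -0.04. Dnmt3a, a DNA methyltransferase, was the furthest in both. It fell from a mean of 5.195 to 2.79 FPKM under the WT label (-0.70, SE 0.138, adjusted p = 0.0143) and from 4.82 to 2.113 FPKM under the KO label (-0.90, SE 0.138, adjusted p = 0.00199). Stag1, a cohesin subunit, fell in both by 0.36 and 0.40 on the log2 scale (adjusted p = 0.0463 and 0.011). Under the KO label Pds5a (-0.53), Setdb1 (-0.51) and Mau2 (-0.45) were the next furthest, and Wiz, a zinc finger protein at the promoters, fell by 0.33 (adjusted p = 0.0369). Smchd1, a chromatin protein that silences the clusters, was called on the average of both labels alone (-0.23, SE 0.077, adjusted p = 0.0419).

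Proteins known to bind or act downstream of the clustered protocadherins formed a list of 28 genes, of which 27 were tested. In the home cage Prkca, a protein kinase C, fell from a mean of 60.07 FPKM in the WT-labelled to 37.115 FPKM in the KO-labelled libraries (-0.68, SE 0.156, limma adjusted p = 0.0377). It was the 1 gene of 27 called, beside 3.57% of all genes. No gene of the list was called between the labels in exploration, beside 0.597% of all genes (9 of 27 at an unadjusted p under 0.05, beside 17.2%). With exploration under the WT label 0 were called, beside 6.31% of all genes (1 at an unadjusted p under 0.05, beside 22.7%). With exploration under the KO label 3 rose and 7 fell of 27, beside 28.6% of all genes called. Prkca rose (0.61, to 57.52 FPKM) and Pdcd10, which binds the constant part, rose from 33.725 to 51.413 FPKM (0.58, SE 0.133, adjusted p = 0.00956). Wasf3 (-0.56) of the WAVE complex, Nlgn2 (-0.43), the neuroligin of inhibitory synapses, and Psen2 (-0.38), a subunit of the protease that cuts protocadherins in the membrane, fell.

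Protocadherins outside the clusters, which carry no shared constant exons, were compared in the same libraries. Of 12 listed 8 were tested. In the home cage 2 of 8 were higher in the KO-labelled libraries and 0 lower, with a median of 0.43, beside 3.57% of all genes called. Pcdh8, an activity-regulated protocadherin of synapses, had means of 7.325 and 14.805 FPKM in the WT-labelled and KO-labelled groups (0.90, SE 0.203, limma adjusted p = 0.0371), and Pcdh7 of 3.265 and 6.76 FPKM (0.86, SE 0.158, adjusted p = 0.0205). With exploration under the KO label 5 of 8 fell, Pcdh8 (-1.36), Pcdh1 (-1.08), Pcdh7 (-0.85), Pcdh17 (-0.79) and Pcdh19 (-0.71), beside 28.6% of all genes called. Under the WT label 0 of 8 were called (0 at an unadjusted p under 0.05), beside 6.31% of all genes called and 22.7% at that unadjusted p. The difference between the responses was called for Pcdh8 (-1.49, SE 0.262, adjusted p = 0.0496). No gene of the table was called for this difference without WT-labelled exploration replicate 1 or KO-labelled exploration replicate 3, against 104 as fitted. The same held with a pseudocount of 0.1 FPKM, with no filter on low values and with no variance trend. Without WT-labelled exploration replicate 2 the 1 gene called was higher. The Pcdh8 call was lost in all of these fits, and also without WT-labelled home cage replicate 1 or KO-labelled home cage replicate 2.

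Of 18 type I and type II cadherins 13 were tested. In the home cage Cdh22 (1.04, adjusted p = 0.0137) and Cdh4 (0.63, adjusted p = 0.0334) were higher and Cdh6 (-0.56, adjusted p = 0.0497) lower under the KO label, by limma. With exploration Cdh22 (-0.91), Cdh4 (-0.61) and Cdh2 (-0.27) fell under the KO label, 3 of 13 beside 28.6% of all genes called, and Cdh10 (-0.43) under the WT label, 1 of 13 beside 6.31%. The 3 calls between the labels in the home cage stand beside 3.57% of all genes. Cdh22 also had a called difference between the responses (-1.08, SE 0.218, adjusted p = 0.0496), and this call too was lost in all the fits in which that of Pcdh8 was lost.

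Genes beside the clusters were compared as well, without a test against the members. Of 21 listed neighbours 19 were tested. Between the genotype labels 0 were called in either environment, beside 3.57% of all genes in the home cage and 0.597% in exploration. At an unadjusted p under 0.05 there were 6 in the home cage and 2 in exploration, beside 18.3% and 17.2% of all genes. Taf7, a general transcription factor gene between the beta and gamma clusters, ran from 1.39 to 2.16 FPKM in home cage and from 2.32 to 3.03 FPKM in exploration libraries, without overlap. It rose under the KO label (0.40, SE 0.130, limma adjusted p = 0.0385) and on the average (0.35, SE 0.092, adjusted p = 0.0144). Slc25a2, also between these clusters, stayed at 0 to 0.29 FPKM and was not tested. With exploration 1 of the 19 neighbours was called higher and 1 lower under the WT label, beside 6.31% of all genes called. Under the KO label 3 of 19 were called higher and 2 lower, beside 28.6% of all genes called. Ndufa2 rose under both labels (0.63 and 0.80), and Eif4ebp3 fell under both (-1.26 and -0.52).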

How the data were processed

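FPKM values per gene and library were deposited by the authors, per the column headers, in a table of 2 blocks (19156 genes for exploration, 18257 for the home cage). The blocks were joined on gene ID, which left 17986 genes. The submitters' processing notes name HISAT, StringTie, GATK, Bowtie2 and RSEM and the builds GRCm38 and mm10, without their roles. Strand, the division of shared reads and a joint normalization of the blocks are not given in the sources used here. No whole counts were recovered, so no count test was run. Genes at 1 FPKM or more in at least 2 libraries were tested on log2(FPKM + 1) with limma 3.58.1 in R 4.3.3, with 1 mean per group, a variance trend, 6 residual and 5.71 prior degrees of freedom, and Benjamini-Hochberg adjustment over 11892 genes. The test was run on simulated data for the averaged genotype comparison alone, with changes of 1 or 2 on the log2 scale. Smaller changes and the other comparisons were not simulated. All 58 members matched a RefSeq gene ID and a GENCODE transcript.

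The genes named are Neil3, the 5 C-type members, the 3 highest others of each cluster, members nearest 1 FPKM, called members, Ctcf, Rad21, Smchd1, Wiz, Taf7 and Slc25a2, and up to 5 called genes per list and comparison. Genes outside this rule, such as Pcdhga7, Pcdhgb6 and the not-tested members, were named after their values were seen, as extremes of a type. Members and lists were chosen with earlier results of these data known. Alternatives were other pseudocounts, filters and scalings, fits of the compared groups alone, and leaving out each library.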

Additional observations from a re-analysis of the deposited data

Results flagged for a closer look

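Pcdhgc5 and Pcdhgc3 had opposite genotype-label differences in the 2 environments. In the home cage both were higher in the 2 KO-labelled than in the 2 WT-labelled libraries, and in exploration both were lower in all 3 KO-labelled than in all 3 WT-labelled libraries. The difference between these differences was -0.66 (SE 0.14, limma unadjusted p = 0.000578, adjusted p = 0.0536) for Pcdhgc5 and -0.51 (SE 0.13, unadjusted p = 0.00258, adjusted p = 0.0826) for Pcdhgc3 on the log2(FPKM + 1) scale, so neither passed the threshold as fitted.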

How the results depend on the processing

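No paired analysis was possible because the labels give no replicate numbers shared between groups. Of the calls, Pcdhgc5 in the KO-labelled response and Pcdhgb8, Pcdhac2 and Pcdhgc5 in the averaged response held in every alternative in which they were tested. Counts of called members under other settings were as follows. In the home cage the 1 call became 0 with no filter, with a filter of 5 FPKM and with only the groups compared, and 0 to 1 over left-out libraries. For the averaged genotype labels it became 0 with no filter, with a filter of 5 FPKM and with quantile normalization, and 0 to 3 over left-out libraries. Between the labels in exploration, left-out libraries gave 0 to 1. The WT-labelled response had 0 with a pseudocount of 0.1, no filter or a filter of 5 FPKM, 2 with only the groups compared, and 0 to 2 over left-out libraries. The KO-labelled response had 2 with only the groups compared and 1 to 7 over left-out libraries. The averaged response ranged from 3 to 7 and the difference between responses from 0 to 2 over left-out libraries. At a minimum of 5 FPKM, 17 of 58 members counted as expressed, against 50 at 1 FPKM. The filter of 5 FPKM in at least 2 libraries left out Pcdhb20 (5.3 and 4.53 FPKM at its highest) and Pcdhgb8 (at most 1.71 FPKM). Both were then not tested, so the 0 under that filter does not bear on their calls. The cause of the other changes was not tested. A home cage group without 1 library holds 1 sample, which is then assumed to vary like the other groups. The background moved too, since all genes called in the home cage numbered 425 as fitted, 13 without KO-labelled home cage replicate 2 and 15 without WT-labelled home cage replicate 1. With size factors, 54.6% of all genes called in the KO-labelled response were higher, against 42.0% as fitted. Depth limits the members under 1 FPKM, and shared constant exons limit how far single alpha and gamma members can be told apart.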
